A study of Mus musculus with 45 samples.

Results

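Genes for secreted proteins, grouped here as Paneth cell genes, were followed through every library of the series: Lyz1, Lyz2, Ang4, Itln1, Mptx2 and Habp2. They were taken by name, with earlier results of these data known, and make up 6 of the 52636 genes in the deposited tables. Paneth cells sit at the base of the crypts of the small intestine, between the Lgr5+ stem cells, and release antimicrobial proteins into the crypt lumen. Their maturation depends on Wnt signalling, which R-spondins strengthen through the receptors Lgr4, Lgr5 and Lgr6. Lyz1 encodes the lysozyme of Paneth cells and Lyz2 the lysozyme of macrophages and other myeloid cells, and both enzymes cut the cell wall of bacteria. Ang4 is a bactericidal ribonuclease of the angiogenin family. Itln1 encodes intelectin, a lectin that binds sugars of microbial surfaces, and Mptx2 encodes a mucosal pentraxin, a member of a family of secreted pattern-recognition proteins. Habp2 encodes a secreted serine protease that binds hyaluronan. Lyz1 and Lyz2 are neighbours, and every other member apart from Itln1 and Mptx2, which share chromosome 1, lies on a chromosome of its own.

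The series held 45 libraries, 15 of sorted cells and 30 of organoids, and asked what Lgr5 does in intestinal stem cells. Lgr5-DTReGFP is a knock-in allele of Lgr5, so that a heterozygous animal (HE) keeps 1 working copy and a homozygous one (KO) has none, and every DTReGFP library of sorted cells comes from an animal that carries the allele. At E16.5, eGFP+ cells of whole small intestine were pooled by genotype within 2 litters, litter 85 (7 HE and 2 KO embryos) and litter 97 (8 HE and 6 KO embryos). The E18.5 libraries are 2 single HE embryos, and the adult DTReGFP libraries are the duodenum and the ileum of 2 HE mice, 71 and 77, at 2 months. A second line gave eGFP+/RFP+ ileum cells at 2 months, sorted 48 h after 2 mg tamoxifen, from 2 mice with Lgr5-Cre over a wild-type allele (HE) and 3 with Lgr5-Cre over a floxed allele (cKO). Tamoxifen was given to both genotypes of that line, and both carry Lgr5-Cre. Organoids were grown from E17.5 embryos to passage 4, from 3 WT cultures (5, 10 and 30) and 2 Lgr5-DTReGFP KO cultures (2 and 7), each with mouse Rspondin 1, 2 or 3 (Rspo1, Rspo2, Rspo3) at 100 or 5 ng/ml. Values are CPM, reads of a gene divided by the reads counted in its library and scaled up by the same factor in every library. In these bulk samples, fewer cells of a type and less RNA per cell cannot be told apart.

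Depth and labels were looked at before the members. The steps between the lowest CPM values give 1275949 to 9984680 reads for the sorted libraries and 18127789 to 33105693 for the organoids, so that 1 read is 0.784 CPM in the shallowest library, the HE pool of litter 85. At E16.5, Lgr5 itself was 104.25 and 125.1 CPM in HE and 64.75 and 51.65 CPM in KO cells, a difference of -0.97 ± 0.18 (SE) on the log2(CPM + 1) scale (limma, adjusted p = 0.079). Lgr5 reads thus remained in KO libraries. In the tamoxifen line Lgr5 lay at 52.8 and 87.55 CPM in the HE libraries and at 89.15, 109.35 and 90.65 CPM in the cKO libraries. The floxed part is a single exon, so the gene-level count is no check of its deletion. A supplementary gene list gives 2 of these 5 libraries the other genotype: the library labelled HE 1 appears there as cKO and the library labelled cKO 2 as HE, with the values of 859 of 859 genes equal. The calls between cKO and HE and between Cre HE and DTReGFP HE are therefore given under both assignments, and the order of groups as labelled. Within the groups, no pair of libraries looked like 1 library under 2 names, since the mean chi-square per gene over the 9 sorted and 24 organoid pairs was at least 3.45, where sampling noise alone gives 1. Pairs across groups were not compared in this way, apart from the doses of a culture.

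Before the levels of the 2 lysozymes can be read side by side, their sequences matter, because the genes are near copies. In GRCm38 Lyz1 spans chr10:117287797-117292868 and Lyz2 chr10:117277331-117282321, both on the minus strand and 5476 bases apart. Their coding sequences of 447 bases differ at 22 positions (95.1% identical), and 14 of those lie in the 136 coding bases of exon 1. That stretch is printed for both genes, at chr10:117292703-117292838 for Lyz1 and chr10:117282107-117282242 for Lyz2 (minus strand, reference genome), with capitals at the bases that differ.
Lyz1: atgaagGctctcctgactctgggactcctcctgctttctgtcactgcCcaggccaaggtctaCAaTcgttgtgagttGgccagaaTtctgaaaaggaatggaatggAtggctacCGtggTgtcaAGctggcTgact
Lyz2: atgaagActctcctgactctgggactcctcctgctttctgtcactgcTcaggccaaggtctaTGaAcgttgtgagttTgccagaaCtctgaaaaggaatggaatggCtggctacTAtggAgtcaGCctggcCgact
Reads of 100 bases can be assigned wherever such a difference falls in them. Of the 1164 windows of 100 bases in the Lyz1 transcript, 24 (2.06%) occur unchanged in Lyz2, and of the 1217 windows of Lyz2, 24 (1.97%) occur in Lyz1. Mptx2 shares 23 of 695 windows (3.31%) with its neighbour Mptx1, and Habp2 shares 169 of 2716 (6.22%) with Nrap. Ang4 and Itln1 share none with another annotated gene. Reads from the shared windows are uncertain, and the 4 genes concerned are read with that limit.

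Since R-spondins act through Wnt signalling, the 250 bases before each start (RefSeq, GRCm38.p6) were searched on both strands for CTTTGA and CTTTGT, the core letters bound by TCF and LEF proteins, the DNA-binding partners of beta-catenin. A single match each was found for Lyz1 (CTTTGT on the reverse strand, 134 bases before the start), Ang4 (107 bases) and Mptx2 (90 bases), and none for Lyz2, Itln1 and Habp2. Such a match is common: 9075 of 32851 promoters of this length (27.6%) hold one. The Habp2 window, chr19:56287662-56287911, lies inside the gene span given below, which comes from another annotation. Its lack of a match holds for the RefSeq start only. The Lyz1 and Lyz2 promoters are shown because they are related and differ in the motif, and those of Ang4 and Mptx2 because they hold it. In WT organoids Lyz1 and Ang4, with a match, were called higher at 100 ng/ml with each ligand, while Mptx2, with a match, was not called. Lyz2, Itln1 and Habp2, without a match, were also called higher with each ligand. A link between the motif and the dose response was not tested. Capitals mark the motif, on whichever strand it was read.
Lyz1, chr10:117292869-117293118, minus strand: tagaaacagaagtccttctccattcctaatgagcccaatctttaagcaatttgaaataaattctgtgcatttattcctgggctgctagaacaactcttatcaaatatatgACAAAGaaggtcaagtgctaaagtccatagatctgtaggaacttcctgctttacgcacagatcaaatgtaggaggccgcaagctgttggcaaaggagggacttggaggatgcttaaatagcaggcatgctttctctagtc
Lyz2, chr10:117282273-117282522, minus strand: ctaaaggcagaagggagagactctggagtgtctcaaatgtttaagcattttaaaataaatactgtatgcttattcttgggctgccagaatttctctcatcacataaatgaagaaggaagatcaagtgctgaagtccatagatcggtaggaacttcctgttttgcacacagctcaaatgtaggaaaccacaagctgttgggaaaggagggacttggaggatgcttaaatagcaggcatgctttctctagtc
Ang4, chr14:51773591-51773840, minus strand: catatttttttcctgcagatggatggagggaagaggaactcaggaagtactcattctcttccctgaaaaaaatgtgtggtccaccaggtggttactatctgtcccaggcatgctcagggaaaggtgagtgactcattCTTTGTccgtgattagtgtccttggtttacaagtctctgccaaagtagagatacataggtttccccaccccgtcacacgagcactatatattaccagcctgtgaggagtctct
Mptx2, chr1:173277757-173278006, minus strand: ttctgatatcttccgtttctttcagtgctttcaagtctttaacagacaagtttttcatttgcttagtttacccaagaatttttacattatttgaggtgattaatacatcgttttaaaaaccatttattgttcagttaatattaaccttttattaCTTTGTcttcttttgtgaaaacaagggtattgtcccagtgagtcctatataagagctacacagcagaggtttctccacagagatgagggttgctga
Aligned without gaps from the start, the Lyz1 and Lyz2 promoters are identical over the last 50 bases, 92.0% identical over the last 100 and 60.8% over 250. Of the other genes, Ang4 lies at chr14:51763878-51773590, Itln1 at chr1:171518122-171535294 and Mptx2 at chr1:173274382-173277777, all on the minus strand, and Habp2 at chr19:56287137-56320822 on the plus strand.

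In adult Lgr5-DTReGFP cells, the 6 genes were above their E18.5 levels. Lyz1 stood at 16.65 and 9.9 CPM in the E18.5 embryos, at 8332.45 and 8517.35 CPM in the adult duodenum of mice 71 and 77, and at 5456.15 and 13187.3 CPM in their ileum. Lyz2 went from 6.25 and 4.6 CPM at E18.5 to 2195.45 and 2005.45 CPM in duodenum and 1473.55 and 3111.65 CPM in ileum. For both lysozymes, all 4 of these adult libraries lay far above both E18.5 embryos. Ang4 lay at 4.2 and 4.6 CPM at E18.5, at 983.85 and 958.2 CPM in duodenum and at 594 and 1697.75 CPM in ileum. Itln1 was already higher before birth, at 37.15 and 38.8 CPM, and reached 2076.3 and 2376.9 CPM in duodenum and 1136.45 and 4445.7 CPM in ileum. Ang4 and Itln1 thus followed the lysozymes, with mouse 77 above mouse 71 in the ileum for each of these 4 genes. Mptx2 was uneven: 16.15 and 9.9 CPM at E18.5, 528.5 CPM in the duodenum of mouse 71 but 71.6 CPM in that of mouse 77, and 414.75 and 213.15 CPM in ileum. Habp2 moved least, from 4.4 and 3.55 CPM at E18.5 to 44.8 and 34.35 CPM in duodenum and 44.8 and 136 CPM in ileum.

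**Figure D1:**
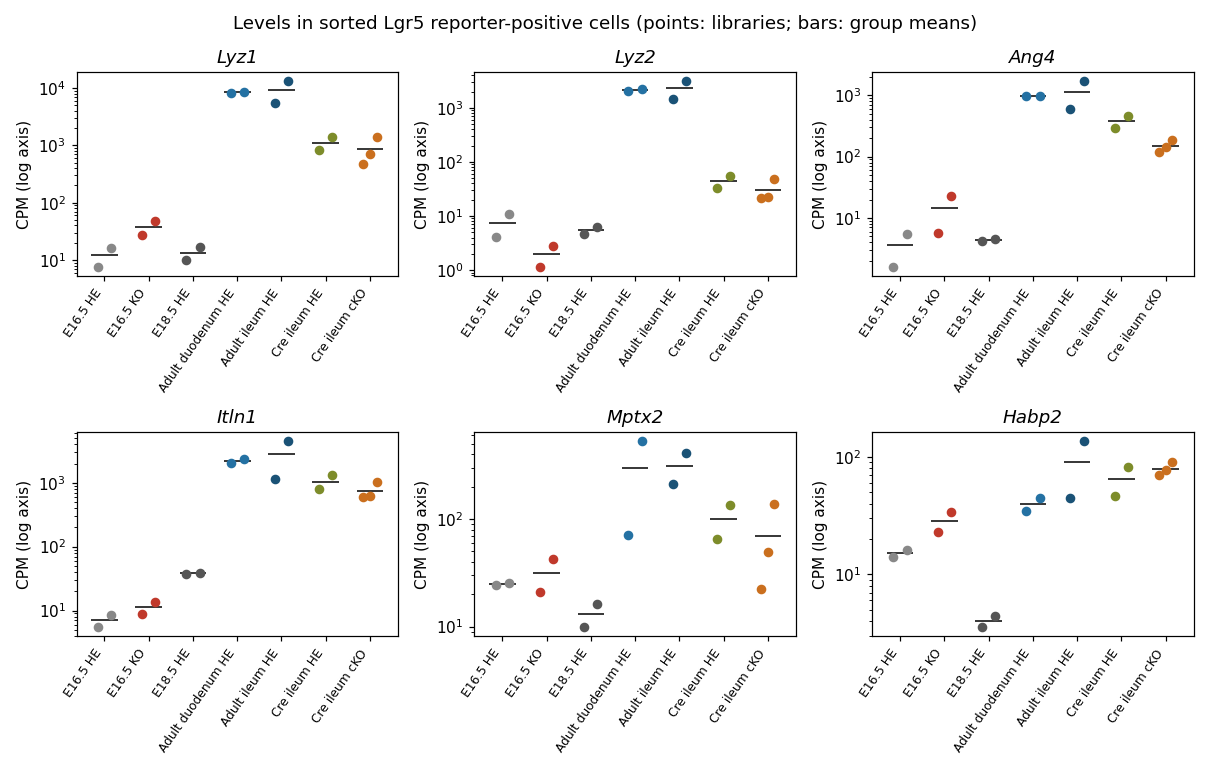
CPM of the 6 genes in each of the 15 sorted-cell libraries (points, log scale, 1 panel a gene), by group on the x axis, with the group mean as a bar. Every adult point lies above both E18.5 points of its panel, and for Lyz2 the 5 libraries of the tamoxifen line (21.2 to 54.15 CPM) lie far below the 4 adult DTReGFP libraries (1473.55 to 3111.65 CPM).

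All 6 members passed the test between adult and E18.5 HE cells (limma, adjusted p of at most 0.1 and a fold above 1.5), where 9.36% of all genes tested were called higher. The log2 difference was 9.25 ± 0.33 (SE) for Lyz1, a fold of 609.5, with an adjusted p of 1.8e-05, and 8.38 ± 0.27 for Lyz2, with the same adjusted p. It was 7.52 ± 0.35 for Ang4 (adjusted p = 2.7e-05) and 5.84 ± 0.45 for Itln1 (adjusted p = 0.0003). Habp2 gained 3.51 ± 0.49 (adjusted p = 0.0038) and Mptx2 4.14 ± 0.72 (adjusted p = 0.0086). The Mptx2 call was lost without either E18.5 embryo, at an adjusted p of 0.107 and 0.151. The adult libraries are the duodenum and ileum of the same 2 mice and were fitted as separate samples, so the SE can understate the spread between mice. With both regions averaged within each mouse, all 6 members were still called. The median over the members was 6.68 against -0.04 over all genes. Defensin genes, the alpha-defensins of the same granules, moved likewise, with 18 of 20 tested called higher, among them Defa35 (8.59).

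Per kilobase of transcript, which allows genes to be set against each other, Lyz1 led in the adult. The mean level in duodenum was 6671 CPM per kb for Lyz1, 1951 for Itln1, 1596 for Lyz2, 1370 for Ang4, 377.9 for Mptx2 and 12.4 for Habp2 (2 mice). In ileum Lyz1 also led, with 7381 CPM per kb, and Habp2 was last with 28.3, while the genes between them changed places from mouse to mouse, with Lyz2 above Itln1 in mouse 71 and Ang4 above Lyz2 in mouse 77. At E18.5 the order was another: Itln1 led with 33.3 CPM per kb, followed by Mptx2 with 16.4 and Lyz1 with 10.5, and Habp2 was last with 1.24.

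Ranked over the 7 sorted groups, Lyz1, Lyz2, Ang4 and Itln1 shared the upper part of the order: adult ileum, adult duodenum, Cre HE and cKO. Ileum and duodenum overlapped in each of the 4. Cre HE and cKO as labelled overlapped for Lyz1, Lyz2 and Itln1 and not for Ang4 (375.4 ± 113.8 CPM, n = 2, and 149.3 ± 33.3 CPM, n = 3). At the foot of the order the genes parted, with E18.5 above E16.5 KO for Itln1 (38.0 ± 1.2 against 11.3 ± 3.6 CPM, n = 2 each) and below it for Ang4 (4.40 ± 0.28 against 14.3 ± 12.3 CPM). Mptx2 had the same upper order, but each of these groups overlapped the next. Habp2 had another order, with adult ileum (90.4 ± 64.5 CPM), cKO (79.2 ± 9.9 CPM) and Cre HE (64.5 ± 25.7 CPM) overlapping one another. Adult duodenum had a lower mean (39.6 ± 7.4 CPM), but its higher library equalled the lower library of adult ileum (44.8 CPM).

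Lyz2 is a myeloid gene, so markers of myeloid cells were read beside it. The summed level of the 14 myeloid genes listed was 111 to 138 CPM in the 4 adult DTReGFP libraries and 41.15 to 47.85 CPM at E18.5. In the adult libraries C1qb, a complement gene of tissue macrophages, was at 0 in all 4, and C1qa and C1qc were at 0 in 3 of 4. Adgre1, which encodes the macrophage antigen F4/80, was between 0 and 1.35 CPM there, against at least 1473.55 CPM of Lyz2. Of the 9 myeloid genes tested between adult and E18.5, 2 were called higher, Ptprc, the antigen CD45 of blood cells (4.35, adjusted p = 0.0051), and Ctss (1.32, adjusted p = 0.011), and 1 lower, and their part in the rise of Lyz2 was not tested. Goblet genes rose with age too, from a summed 358 to 499.5 CPM at E18.5 to 1462 to 1640 CPM in duodenum and 2205 to 8298 CPM in ileum, and their part in the levels of Itln1 and Mptx2 was not tested.

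Between the ileum and the duodenum of the same adult mice, no member was called by limma, at an unadjusted p under 0.05 in 0 of 6, where 6.88% of all genes were called. The difference, ileum minus duodenum, was 0.01 for Lyz1 with a 95% interval of -0.98 to 1.00 on the log2 scale, 0.03 (-0.77 to 0.83) for Lyz2 and 0.05 (-0.96 to 1.06) for Ang4. For Itln1 it was 0.02 (-1.28 to 1.32), for Mptx2 0.61 (-1.30 to 2.51) and for Habp2 0.98 (-0.09 to 2.05). These intervals leave room for differences of 2-fold or more in most members. The sign turned on single mice: without the ileum of mouse 77 the difference was -0.63 for Lyz1, -0.51 for Lyz2, -0.71 for Ang4 and -0.97 for Itln1, none of them called. Without the ileum of mouse 71, Habp2 was called at 1.77 (adjusted p = 0.059). The ileum of mouse 77 carried the highest level of 5 members and also the most Muc2, the main secreted mucin of goblet cells, at 5717.9 CPM against 1293.1 CPM in the ileum of mouse 71.

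Within fetal HE cells, only some of the 6 genes changed from E16.5 to E18.5, and not in 1 direction. Itln1 rose from 5.5 and 8.6 CPM to 37.15 and 38.8 CPM, by 2.30 ± 0.26 on the log2 scale (adjusted p = 0.0012). Habp2 fell from 14.15 and 16.15 CPM to 4.4 and 3.55 CPM, a log2 difference of -1.70 ± 0.29 (adjusted p = 0.0049). Mptx2 fell from 24.3 and 25.25 CPM to 16.15 and 9.9 CPM, a log2 difference of -0.91 ± 0.27 (adjusted p = 0.032), and its neighbour Mptx1 fell further, with -3.79. The groups did not overlap for these 3 members, but 49.6% of all genes were called in this comparison, so 3 of 6 is near the background. Lyz1 (0.18), Lyz2 (-0.29) and Ang4 (0.39) were not called. Leaving out either E18.5 embryo left 0 members called, and leaving out either E16.5 pool ended the Mptx2 call. Myeloid genes were called lower at E18.5 in 11 of 14 cases and mesenchymal genes in 6 of 6, and their part in the falls was not tested.

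At E16.5, Lyz1 values were higher in the Lgr5 KO pool than in the HE pool of each litter. Lyz1 had 21 and 15 reads in the HE pools of litters 85 and 97, a mean of 12.05 ± 6.29 CPM (SD, n = 2). The KO pools of these litters had 126 and 68 reads, at 48.3 and 27 CPM. Both KO pools lay above both HE pools. Ang4 stood at 1.6 and 5.55 CPM in HE and 23 and 5.6 CPM in KO, or 2, 11, 60 and 14 reads, so that in litter 97 the genotypes were level. Habp2 was at 14.15 and 16.15 CPM in HE and at 34.1 and 23.05 CPM in KO, again without overlap. Lyz2 went the other way, from 11 and 4.05 CPM in HE to 1.15 and 2.8 CPM in KO, which are 14, 8, 3 and 7 reads. Itln1 (5.5 and 8.6 CPM in HE, 13.8 and 8.75 CPM in KO) did not overlap but was nearly level in litter 97, and Mptx2 (24.3 and 25.25 CPM in HE, 42.15 and 21.05 CPM in KO) overlapped.

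By limma on these 4 pools, 0 of 6 members were called, where 0.527% of all genes were, although 4 of 6 had an unadjusted p under 0.05. The share of all genes at that unadjusted p is not given here. The log2 difference, KO minus HE, was 1.60 ± 0.38 (SE) for Lyz1 (adjusted p = 0.12), 1.61 ± 0.63 for Ang4 (adjusted p = 0.31) and 0.85 ± 0.28 for Habp2 (adjusted p = 0.24). For Lyz2 it was -1.45 ± 0.55 (adjusted p = 0.29), for Itln1 0.60 ± 0.39 (adjusted p = 0.52) and for Mptx2 0.26 ± 0.30 (adjusted p = 0.75), or -0.22 without the KO pool of litter 85. The call for Lyz1 turned on the model. With the litter as a block, since HE and KO pools of a number are litter mates, Lyz1 was called at an adjusted p of 1.2e-05, Ang4 at 0.029 and Habp2 at 0.081, 3 of 6 members. With only 4 pools that fit leaves little freedom for the spread of a single gene, so its p-values lean on the spread of other genes. The deviations of litter mates had a correlation of -0.032. The share of all genes called with the litter block is not given here. On the whole reads recovered from the CPM, edgeR called Lyz1 alone (1.68, adjusted p = 0.054) and DESeq2 called 0. Lyz1 was also called with TMM scaling (adjusted p = 0.084).

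Beside these values, several cell type lists moved at E16.5. Defensin genes had 1 of 10 tested called higher, Defa29 (2.09), and goblet genes 2 of 8, Ccl9 (1.40) and Fcgbp (1.03), with a summed goblet level of 389 to 418 CPM in HE and 527 to 853 CPM in KO. Of the 8 other Paneth granule genes, 7 were tested and 0 called, and of 10 Paneth regulators 0. Enterocyte genes were called lower in 5 of 9 cases, among them Fabp1 (-1.70) and Apoa4 (-1.69), which bind and carry lipid. Mesenchymal genes summed to 710.9 to 1657 CPM in HE and 162.95 to 444 CPM in KO, with 1 of 6 called lower, the collagen gene Col3a1 (-2.10). Of 8 stem cell genes, 1 was called higher, the Wnt target Axin2 (0.92), and 1 lower, Lgr5 (-0.97). Myeloid genes summed to 113 to 181 CPM in HE and 33.25 to 51.05 CPM in KO, and 2 of 14 were called lower, Cybb (-3.06) and Ctss (-2.27). The lower Lyz2 values of the KO pools stood beside these lower myeloid values, and the part of myeloid cells in them, or of the other cell types in the higher values, was not tested.

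In the tamoxifen line, 0 of 6 members were called between libraries labelled cKO and HE, where 0.0504% of genes were, and 1 of 6 had an unadjusted p under 0.05. That gene was Ang4, at 294.9 and 455.8 CPM in the libraries labelled HE and at 143.35, 185.25 and 119.4 CPM in those labelled cKO. The groups did not overlap, and the log2 difference of -1.31 ± 0.24 had an adjusted p of 0.82, or 0.0081 without the filter on low values. Lyz1 lay at 816.8 and 1421.9 CPM in libraries labelled HE and at 471.7, 1375.1 and 695 CPM in those labelled cKO, with overlap (-0.49). Itln1 lay at 785.2 and 1306.15 CPM against 589.4, 1037.7 and 612.55 CPM (-0.49). Mptx2 was at 65.75 and 134.9 CPM against 22.55, 139.4 and 49.1 CPM (-0.79), and Lyz2 at 32.95 and 54.15 CPM against 21.2, 47.95 and 22.05 CPM (-0.56). In each of these 4 genes the library labelled cKO 2 was close to the library labelled HE 2. Habp2 was 46.3 and 82.7 CPM against 70.55, 77 and 89.95 CPM (0.34).

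Under the genotypes of the gene list, in which HE 1 counts as cKO and cKO 2 as HE, 4 members were called lower in cKO. These were Lyz1 (-1.12, adjusted p = 0.041), Itln1 (-0.82, adjusted p = 0.045), Lyz2 (-1.0, adjusted p = 0.056) and Mptx2 (-1.69, adjusted p = 0.059), while Ang4 and Habp2 were not. The share of all genes called under that assignment is not given here, so these calls have no background beside them. With both libraries of conflicting genotype left out, which leaves 1 HE library against 2, limma called 0 members, although 5 of 6 were lower by -1.12 to -1.98 (adjusted p = 0.18). Which assignment is right cannot be read from Lgr5, and no direction after acute Lgr5 loss is drawn from these 5 libraries.

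Both ileum HE groups at 2 months differ in line, sort gate and tamoxifen, which cannot be told apart, and they differed most in Lyz2. It stood at 1473.55 and 3111.65 CPM in the DTReGFP libraries and at 32.95 and 54.15 CPM in the libraries labelled Cre HE, a log2 difference of -5.63 ± 0.37 (adjusted p = 0.00086), or 49.5-fold lower. Lyz1 differed by -2.98 ± 0.45 (adjusted p = 0.0047), or 7.86-fold, Mptx2 by -1.65 ± 0.40 (adjusted p = 0.021) and Ang4 by -1.45 ± 0.46 (adjusted p = 0.048). These 4 members were called, all lower, where 42.8% of all genes were called in either direction (3483 of 18824 lower), and 13 of 20 defensin genes were called lower. Itln1 (-1.15, adjusted p = 0.17) and Habp2 (-0.33, adjusted p = 0.63) were not called. The Ang4 call was lost without the ileum of mouse 77 or without either Cre HE library, and the Mptx2 call without the ileum of mouse 71 or without Cre HE 1. Neither stood without the filter on low values (adjusted p = 0.18 for Ang4 and 0.12 for Mptx2). With the Cre HE libraries taken from the gene list instead, the same 4 members were called, Lyz2 at -5.37 (adjusted p = 5.1e-05), Lyz1 at -2.60, Ang4 at -1.79 and Mptx2 at -1.11. Goblet genes moved the other way, with 4 of 8 called higher, Zg16 by 4.82 and Clca1 by 4.04, while Lgr5 was lower by -2.34. Myeloid genes summed to 117 to 152 CPM in the Cre HE libraries and 134 to 138 CPM in the DTReGFP ileum, with 4 of 7 tested called higher and 2 lower.

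The ratio of Lyz1 to Lyz2, taken within each library, differed between adult DTReGFP cells, the tamoxifen line and organoids. It was 3.70 to 4.25 in the 4 adult DTReGFP libraries (median 4.02) and 22.25 to 31.5 in the 5 libraries of the tamoxifen line (median 26.3), with both labelled genotypes in that range. In organoids it was 63.3 to 131 in the 18 WT libraries (median 87.2) and 67.9 to 141 in the 12 KO libraries (median 87.5). Those 2 ranges overlapped almost whole. In fetal cells, where few reads lie behind it, the ratio was 2.15 and 2.66 at E18.5 and, at E16.5, 1.5 and 1.88 for HE against 42 and 9.64 for KO, with 3 to 14 reads of Lyz2 in each. The E16.5 genotypes did not overlap, and together they spanned the values of the adult libraries. Sorted cells and organoids were normalised in separate tables, but a ratio within a library does not depend on that scaling. The kits of library preparation differed between them too, and their part in the ratios was not tested. The ratios are a description with no test.

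**Figure D2:**
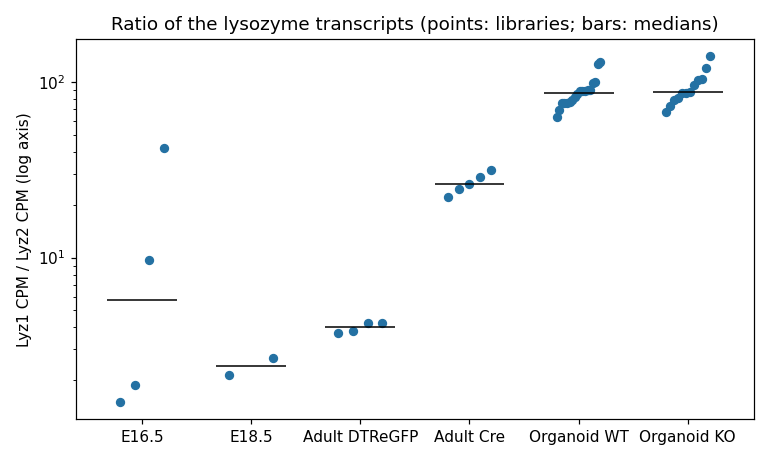
Ratio of Lyz1 CPM to Lyz2 CPM in each of the 45 libraries (points, log scale), by source, with the median of each source as a line. Adult DTReGFP libraries sit near 4.02, the tamoxifen line near 26.3, and WT and KO organoids near 87.2 and 87.5.

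In WT organoids, 5 of the 6 genes were called higher at the high dose of R-spondin with each ligand, and Mptx2 was called with none. With Rspo1, Lyz1 in the WT cultures 5, 10 and 30 was 329.1, 604.15 and 448.1 CPM at 100 ng/ml and 78.95, 185.35 and 128.25 CPM at 5 ng/ml. Itln1 was 325, 572.55 and 418.15 CPM at 100 ng/ml and 50.6, 79.65 and 44.85 CPM at 5 ng/ml. Both genes were higher at 100 ng/ml in 3 of 3 cultures, with no overlap. Habp2 was 31.4, 39.8 and 43.35 CPM against 1.85, 4.35 and 4.4 CPM, and Ang4 10.3, 13.15 and 8.85 CPM against 0.9, 2.1 and 1.7 CPM. Lyz2 was low throughout, at 5.2, 7.9 and 5.85 CPM against 1, 2.25 and 1.3 CPM. The ratio of Lyz1 to Lyz2 was 63.3 to 131 in WT organoids, while 2.06% of the Lyz1 windows occur unchanged in Lyz2. The part of misassigned Lyz1 reads in the organoid Lyz2 values was not tested. Mptx2 values lay the other way, at 31.8, 89.8 and 77.05 CPM at 100 ng/ml and 43.9, 147.2 and 85.65 CPM at 5 ng/ml, so that each culture was higher at the low dose while the groups overlapped.

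With Rspo2, Lyz1 in the same WT cultures was 468.4, 694.6 and 590.8 CPM at 100 ng/ml and 173.45, 160.9 and 133.65 CPM at 5 ng/ml. With Rspo3 it was 231.25, 194.6 and 255.9 CPM against 51.4, 59.05 and 88.7 CPM, the lowest of the 3 ligands at either dose by the mean. Itln1 was 443.65, 801.05 and 645.2 CPM with Rspo2 at 100 ng/ml against 152.4, 156.95 and 127.05 CPM at 5 ng/ml, and 157.35, 208.65 and 263.5 CPM with Rspo3 against 22, 15.45 and 17.35 CPM. The doses did not overlap for either gene with either ligand. Habp2 reached 43.75, 76.95 and 113 CPM with Rspo2 against 8.65, 10.8 and 11 CPM, and 10.2, 15.65 and 25.4 CPM with Rspo3 against 0.9, 1.45 and 1.9 CPM. Ang4 was 16.2, 21.8 and 15.3 CPM with Rspo2 against 4.35, 2.85 and 2.5 CPM, and 5.2, 5.2 and 6.1 CPM with Rspo3 against 1.6, 1.3 and 1.35 CPM. Lyz2 was 5.15, 10 and 7.8 CPM with Rspo2 against 2.25, 1.8 and 1.5 CPM, and 2.55, 1.95 and 2 CPM with Rspo3 against 0.6, 0.45 and 1 CPM. Again no dose overlapped with the other in these 3 genes. Mptx2 was 30.75, 49.3 and 45.75 CPM with Rspo2 at 100 ng/ml and 60.5, 80.95 and 79.7 CPM at 5 ng/ml, with the low dose above the high one throughout. With Rspo3 it was 50.05, 66.15 and 88.15 CPM at 100 ng/ml and 31.95, 43.7 and 53.65 CPM at 5 ng/ml, higher at the high dose in each culture but with overlap between cultures.

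Per kilobase, the mean over the 3 WT cultures with Rspo1 at 100 ng/ml was 384.4 CPM per kb for Itln1 and 364.6 for Lyz1, then 83.4 for Mptx2, 15.2 for Ang4, 11.96 for Habp2 and 4.80 for Lyz2. Itln1 and Lyz1 were level here within the spread of the cultures, and Lyz2, which ranked above Ang4 in adult duodenum, was last.

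**Figure D3:**
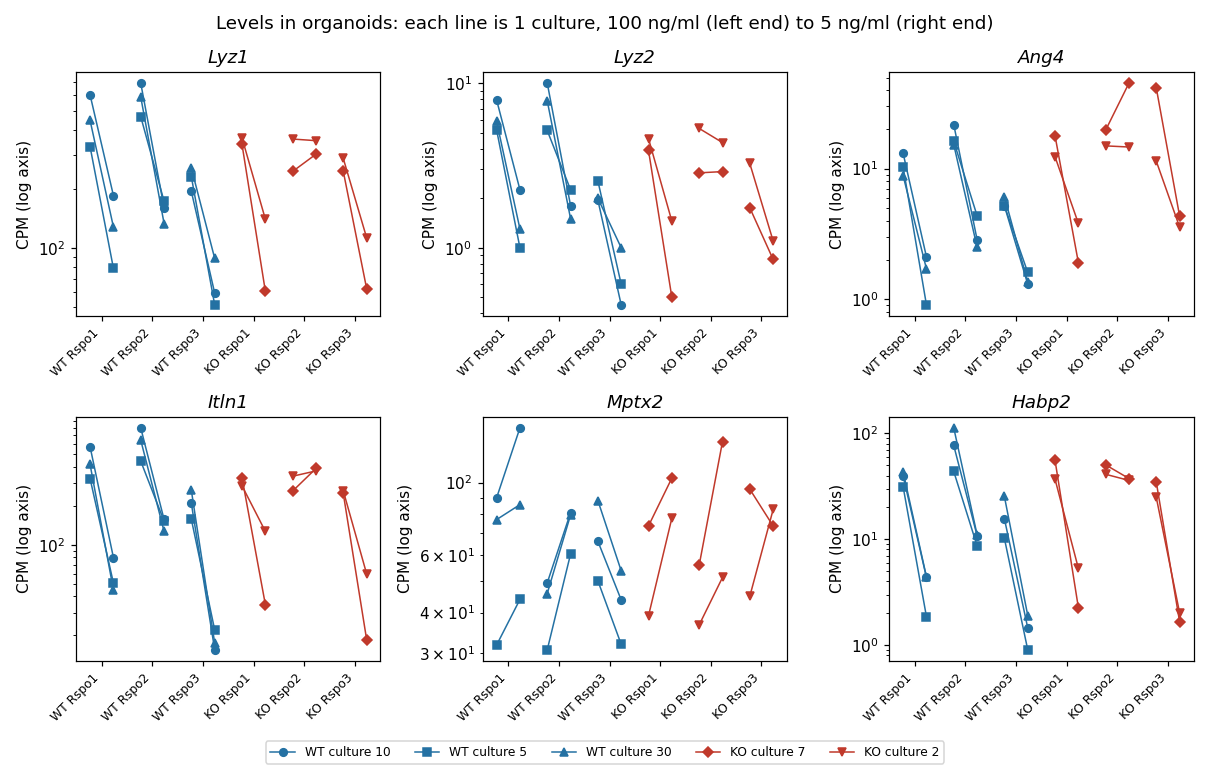
CPM of the 6 genes in each of the 30 organoid libraries (points, log scale, 1 panel a gene), by genotype and ligand on the x axis, where each line joins 1 culture from 100 ng/ml (left end) to 5 ng/ml (right end). Lines fall in every WT culture for Lyz1, Lyz2, Ang4, Itln1 and Habp2, and are nearly level or rise in KO cultures with Rspo2, apart from modest falls such as Habp2 in culture 7 (50.45 to 37.45 CPM).

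Across the 3 ligands in WT, these 5 genes were called higher at 100 ng/ml in 15 of 15 tests (limma on all 30 libraries, adjusted p of at most 0.05), while all genes were called higher at 40.9% for Rspo1, 24.3% for Rspo2 and 37.8% for Rspo3. The Lyz2 calls carry the limit of windows shared with Lyz1. Habp2 had the widest change with Rspo1 and Rspo2, and values of 3.16, 2.73 and 2.84 on the log2 scale for Rspo1, Rspo2 and Rspo3 (SE 0.33 each). Itln1 changed by 2.89, 2.07 and 3.43 (SE 0.38), the widest with Rspo3, and Ang4 by 2.21, 2.16 and 1.43 (SE 0.36). Lyz1 changed by almost the same amount with each ligand, 1.85, 1.89 and 1.79 (SE 0.31), and Lyz2 by 1.55, 1.57 and 0.92 (SE 0.25). Since the pseudocount of 1 CPM damps low genes, the ratio of the CPM themselves is given too: for Lyz2 with Rspo1 it was 3.51 to 5.20 in the 3 cultures, and for Lyz1 3.26 to 4.17. The median over the members was 2.03 for Rspo1, against 0.28 over all genes.

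Mptx2 was not called at any ligand in WT, with log2 differences of -0.44, -0.82 and 0.64 (SE 0.42). Its direction depended on the ligand: 3 of 3 WT cultures were lower at 100 ng/ml with Rspo1 and with Rspo2 (ratios of 0.610 to 0.8996 and 0.508 to 0.609), and 3 of 3 were higher with Rspo3 (ratios of 1.51 to 1.64). With the culture as a block, since libraries of a number are the same culture, Mptx2 was called for Rspo2 (adjusted p = 0.0059) and for Rspo3 (adjusted p = 0.017), in these opposite directions. Among the 8 other Paneth granule genes listed, 3 were called higher and 2 lower with Rspo1 in WT. Goblet genes had 0, 0 and 1 of 7 tested called higher and 1, 4 and 1 called lower with Rspo1, Rspo2 and Rspo3. Stem cell genes were called higher in 8 of 8 cases with each ligand, and defensin genes in 13, 13 and 9 of 13. Paneth regulators, the transcription factors and surface proteins of the lineage, were called higher in 7, 5 and 7 of 10 cases and lower in 2, 2 and 1, and enterocyte genes lower in 6, 6 and 5 of 9.

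In KO organoids the dose response of the same 5 genes was present with Rspo1 and Rspo3 and was not detected with Rspo2. With Rspo1, Lyz1 in KO cultures 2 and 7 was 365.05 and 338.65 CPM at 100 ng/ml and 140.7 and 60.4 CPM at 5 ng/ml. With Rspo3 it was 286.75 and 246.65 CPM against 113.1 and 62.3 CPM. With Rspo2 it was 359.9 and 246.1 CPM at 100 ng/ml and 353.1 and 301.4 CPM at 5 ng/ml, so the low dose gave the level of the high dose in both cultures. Itln1 with Rspo2 was 338.8 and 260.15 CPM at 100 ng/ml and 372.25 and 388.95 CPM at 5 ng/ml, higher at the low dose in 2 of 2 cultures. Ang4 with Rspo2 was 14.95 and 19.75 CPM against 14.65 and 45.4 CPM, and the 45.4 CPM of culture 7 at 5 ng/ml was its highest value among the 30 organoid libraries. Habp2 with Rspo2 was 41.1 and 50.45 CPM against 35.95 and 37.45 CPM, while with Rspo1 it fell from 37 and 55.9 CPM to 5.3 and 2.25 CPM. Lyz2 with Rspo2 was 5.3 and 2.85 CPM against 4.35 and 2.9 CPM.

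With the other ligands the KO cultures kept the pattern seen in WT. Itln1 with Rspo1 was 286 and 330.8 CPM at 100 ng/ml against 127.05 and 34.55 CPM at 5 ng/ml, and with Rspo3 261.2 and 249.3 CPM against 59.7 and 18.55 CPM. Ang4 with Rspo1 was 12.35 and 17.9 CPM against 3.8 and 1.9 CPM, and with Rspo3 11.4 and 41.5 CPM against 3.55 and 4.3 CPM. Culture 7 fell further at the low dose than culture 2 in both genes with Rspo1. Habp2 with Rspo3 was 24.8 and 34.6 CPM against 2 and 1.65 CPM. Lyz2 was 4.6 and 3.9 CPM with Rspo1 against 1.45 and 0.5 CPM, and 3.25 and 1.75 CPM with Rspo3 against 1.1 and 0.85 CPM. Mptx2 was lower at 100 ng/ml in both KO cultures with Rspo1 (39.1 and 73.7 CPM against 77.9 and 103.3 CPM) and with Rspo2 (36.65 and 55.8 CPM against 51.25 and 133.6 CPM). With Rspo3 the cultures parted, at 44.85 CPM against 82.75 CPM in culture 2 and 95.5 CPM against 73.65 CPM in culture 7.

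Ranked by mean, the 12 organoid groups fell into a high and a low set for Lyz1. The high set ran from 584.6 ± 113.2 CPM (SD, n = 3) in WT with Rspo2 at 100 ng/ml down to 227.2 ± 30.8 CPM (n = 3) in WT with Rspo3 at 100 ng/ml, and each neighbour overlapped the next. KO with Rspo2 at 5 ng/ml stood in this set, at 327.2 ± 36.6 CPM (n = 2), between KO with Rspo1 and KO with Rspo2 at 100 ng/ml. The low set held the other groups at 5 ng/ml, from 156.0 ± 20.3 CPM in WT with Rspo2 to 66.4 ± 19.7 CPM in WT with Rspo3, and no library of it reached the high set. For Ang4 the highest mean was that of KO with Rspo2 at 5 ng/ml, 30.025 ± 21.7 CPM (n = 2), which overlapped the next group. Mptx2 means ran from 92.4 ± 58.2 CPM in KO with Rspo2 at 5 ng/ml to 41.9 ± 9.8 CPM in WT with Rspo2 at 100 ng/ml, and every neighbour overlapped the next.

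All 5 genes were called higher at 100 ng/ml in KO with Rspo1, where 21.9% of all genes were, and with Rspo3, where 32.7% were. The log2 differences were 1.92 and 1.65 for Lyz1, 1.45 and 0.79 for Lyz2, 2.09 and 2.22 for Ang4, 2.19 and 2.89 for Itln1, and 3.36 and 3.43 for Habp2. Without culture 7 the calls of Lyz1, Lyz2 and Itln1 with Rspo1 and of Lyz2 with Rspo3 were lost, which left 6 of 10. The Lyz2 call with Rspo3 was also lost without culture 2, with TMM scaling (adjusted p = 0.073) and without the filter on low values (adjusted p = 0.087). With Rspo2, 0 of 6 members were called by limma, and 0 had an unadjusted p under 0.05, where 0.115% of all genes were called in either direction. The log2 difference was -0.13 for Lyz1 (95% interval -0.92 to 0.65), 0.11 for Lyz2 (-0.53 to 0.74) and -0.57 for Ang4 (-1.48 to 0.35). For Itln1 it was -0.36 (-1.32 to 0.60), for Habp2 0.30 (-0.53 to 1.14) and for Mptx2 -0.86 (-1.94 to 0.22). For the 5 genes other than Mptx2 the upper end of the interval lies below the difference found in WT with Rspo2. That WT difference has an error of its own, so this is no test between genotypes, which is given below. The flat response was shared by the other lists, with 0 of 8 stem cell genes and 0 of 13 defensin genes called, against 8 and 12 in KO with Rspo1.

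**Figure D4:**
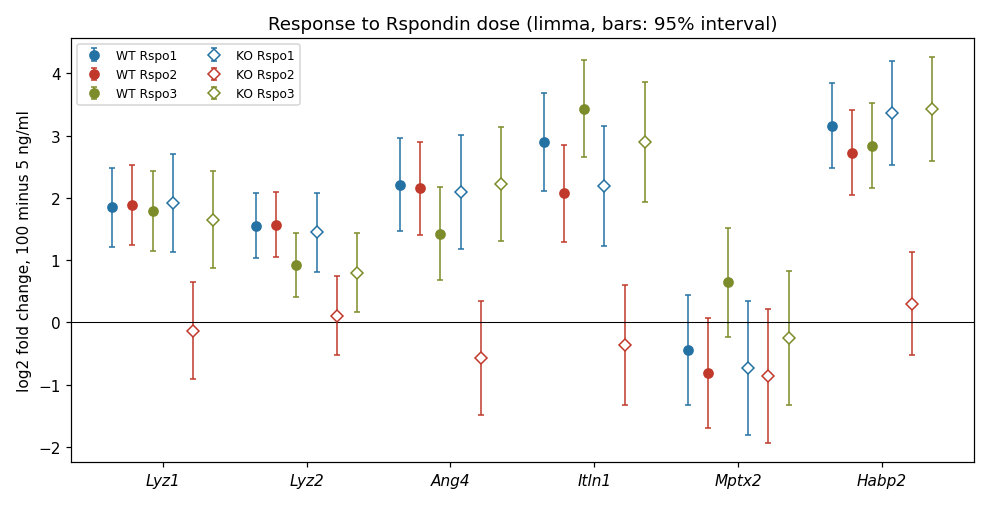
Log2 difference between 100 and 5 ng/ml for each of the 6 genes (log2(CPM + 1) scale, limma, bars are 95% intervals), by ligand, in WT (3 cultures) and KO (2 cultures). The KO values with Rspo2 (-0.86 to 0.30) sit around 0, while 5 genes are at 0.79 or more with the other ligands in KO and with all ligands in WT.

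The difference in dose response between KO and WT was itself tested. With Rspo2 it was called for Ang4 (-2.72 ± 0.57, adjusted p = 0.033) and Habp2 (-2.42 ± 0.52, adjusted p = 0.036), both lower in KO, where 0.413% of all genes were called lower. It was -2.02 for Lyz1 (adjusted p = 0.067), -2.43 for Itln1 (adjusted p = 0.074), -1.46 for Lyz2 (adjusted p = 0.11) and -0.04 for Mptx2 (adjusted p = 0.99). With the culture as a block all 5 genes other than Mptx2 were called, Lyz1 at an adjusted p of 0.0067, Itln1 at 0.011 and Lyz2 at 0.014. The share of all genes called by that fit is not given here. Neither the Ang4 nor the Habp2 call of the main fit stood under a pseudocount of 0.1, without the filter on low values or with TMM scaling (adjusted p of 0.051 to 0.087). Leaving out WT culture 10 or 30 also left none called, at an adjusted p of 0.26 to 0.41, and leaving out any other culture ended the call of Ang4 or of Habp2. Defensin genes had 8 of 13 called lower, stem cell genes 3 of 8, Paneth regulators 2 of 10 and the other Paneth granule genes 0 of 8. With Rspo1 and with Rspo3, 0 members had a difference in dose response by limma, 0 at an unadjusted p under 0.05 with either ligand, and 0.0% of all genes were called with each.

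Compared at a single dose, KO and WT organoids differed in few members. With Rspo2 at 5 ng/ml, Ang4 was 14.65 and 45.4 CPM in KO against 4.35, 2.85 and 2.5 CPM in WT (2.69, adjusted p = 0.0007), and Habp2 35.95 and 37.45 CPM against 8.65, 10.8 and 11 CPM (1.76, adjusted p = 0.01). KO cultures lay above all WT cultures in both genes, and 3.18% of all genes were called higher. The Habp2 call was lost without WT culture 10 (adjusted p = 0.070). Fitted on these 2 groups alone, Ang4 lost its call (adjusted p = 0.075) and Itln1 gained one (adjusted p = 0.016), while without KO culture 7 the Ang4 difference was 1.91 and still called (adjusted p = 0.0019). Defensin genes were called higher in 12 of 13 cases, stem cell genes in 5 of 8, Paneth regulators in 3 of 10 and the other Paneth granule genes in 1 of 8. With Rspo3 at 100 ng/ml, where 0.711% of all genes were called higher, Ang4 was 11.4 and 41.5 CPM in KO against 5.2, 5.2 and 6.1 CPM in WT (1.82, adjusted p = 0.03). That call rested on KO culture 7, without which the difference was 0.93 (adjusted p = 0.32), and it was also lost without any 1 of the WT cultures.

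In the other 4 settings 0 of 6 members were called between genotypes by limma. At 100 ng/ml, 0 members had an unadjusted p under 0.05 with Rspo1 (0.214% of all genes called) and 3 with Rspo2 (1.2% called). At 5 ng/ml the numbers were 0 with Rspo1 (0.125% called) and 1 with Rspo3 (0.193% called). These percentages are by adjusted p, and the share of all genes at an unadjusted p under 0.05 is not given here.

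The ligands were compared with Rspo1 at the same dose, 8 comparisons for each of 6 genes, with p-values adjusted over all genes in each. In KO at 5 ng/ml, Rspo2 gave more of 5 members than Rspo1: Ang4 by 2.85 (adjusted p = 0.0005), Habp2 by 3.06 (0.00011 as adjusted p), Itln1 by 2.499 (adjusted p = 0.0017), Lyz1 by 1.81 (adjusted p = 0.0031) and Lyz2 by 1.25 (adjusted p = 0.0077), where 13.6% of all genes were called higher. Mptx2 was not called. Without culture 7 the calls of Lyz1, Lyz2 and Itln1 were lost, and fitted on the 2 groups alone all 5 were (adjusted p of 0.053 to 0.11). In WT at 5 ng/ml, Rspo2 gave more Itln1 (1.34, adjusted p = 0.014) and Habp2 (1.35, adjusted p = 0.0058), with 16.4% of genes called higher, although Itln1 lost its call without any 1 of the WT cultures and Habp2 without culture 10. Rspo3 gave less Lyz1 (-0.92, adjusted p = 0.044) and Itln1 (-1.59, adjusted p = 0.0063), with 12.7% called lower. Lyz1 lost its call without any 1 of the 3 WT cultures and with TMM scaling (adjusted p = 0.053), and Itln1 without culture 10 or 30.

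At 100 ng/ml no member differed between ligands by limma in either genotype. In WT, 1 member had an unadjusted p under 0.05 for Rspo2 against Rspo1 (0.204% of all genes called) and 5 for Rspo3 against Rspo1 (0.00523% called). In KO the numbers were 0 and 0, with 0.0105% and 0.0% called. The percentages are by adjusted p, so they are no background for counts of members at an unadjusted p. In KO at 5 ng/ml, Rspo3 against Rspo1 had 1 member at an unadjusted p under 0.05 and 0 called, where 16.2% of all genes were called in either direction. With the culture as a block, for which no share of all genes is given, the calls over the 48 tests rose from 9 to 18. Those added in WT were Lyz1, Lyz2, Ang4, Itln1 and Habp2, lower with Rspo3 than with Rspo1 at 100 ng/ml, Habp2 higher with Rspo2 at 100 ng/ml, Ang4 higher with Rspo2 at 5 ng/ml, and Habp2 and Mptx2 lower with Rspo3 at 5 ng/ml. Comparisons of a dose share the Rspo1 libraries.

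Across the 30 organoid libraries the members other than Mptx2 varied together, with culture, ligand and dose shared among the points. Pearson's r of log2(CPM + 1) was 0.964 between Lyz1 and Lyz2, 0.958 between Lyz1 and Itln1, 0.953 between Itln1 and Habp2 and 0.944 between Lyz1 and Habp2. Ang4 was looser, at 0.721 to 0.872 with these 4. Mptx2 had r of -0.231 to -0.027 with the other 5. Over the 15 sorted libraries, which differ in age, line and gut region, Ang4 and Lyz1 had an r of 0.981 and the lowest value, 0.510, was that of Habp2 and Lyz2. These r describe the libraries, which share cultures and mice, and carry no test.

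The genes whose pattern was most like each member were found by the same r among all genes expressed. In organoids the nearest to Mptx2 was Mptx1 (0.981), its neighbour with shared reads, followed by Tff3, a goblet trefoil peptide (0.853), and Hepacam2 (0.844). Lyz1 was nearest to Lyz2, Itln1 and Kif12 (0.955), and Lyz2 to Lyz1, Armc9 (0.953) and Gm38315 (0.951). Itln1 was nearest to Wdr48 (0.972), Fam173b (0.971) and Adat1 (0.970), and Habp2 to Hk2, a hexokinase (0.987), Soat1 (0.984) and Cuedc1 (0.980). For Ang4 the nearest were Atg9b (0.945), the defensin gene Defa35 (0.943) and Lama5 (0.939). In sorted cells the nearest genes of Lyz1, Lyz2, Ang4 and Itln1 were mostly defensin genes, with AY761184 (0.993) and Defa26 (0.992) for Lyz1 and Defa24 for Itln1 (0.981). Habp2 stood apart there too, nearest to Nucb2 (0.956), Slk (0.931) and Ralgps2 (0.926), and Mptx2 was nearest to Olfr418 (0.929).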

How the data were processed

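RNA was measured in 15 sorted-cell and 30 organoid libraries (paired-end RNA-seq), prepared per the labels with the Ovation SoLo kit for sorted cells and the NEBNext rRNA depletion kit for organoids. The authors deposited CPM values of 52636 genes in 2 tables, of which 52403 IDs are in GENCODE M21. The submitters' processing notes name Trimmomatic 0.36, STAR 2.5.3a, HTSeq 0.9.1 and GRCm38.p4 (mm10). Values in each file step by 0.05 CPM, so a low value is known only to that step. No counts were used as deposited. The study tested counts, but since the unit is CPM, the tests here used log2(CPM + 1) in limma 3.58.1 (R 4.3.3, two-sided, trended variance), on genes that reached 1 CPM in 2 or more libraries (as many as the smallest group compared), with Benjamini-Hochberg adjustment over all genes tested. Log2 differences of low genes are damped by the pseudocount. Sorted cells were called at an adjusted p of 0.1 and a fold above 1.5, organoids at 0.05 in a single fit of 12 groups.

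Whole reads could be recovered from the CPM of the 4 E16.5 libraries, where 100% of the low values and 99.9% to 100% of all values came out whole within 0.05 CPM (1275949 to 2611302 reads). edgeR 4.0.16 and DESeq2 1.42.0 were run on them and called 310 and 117 genes, against 91 by limma. The scripts were tested on simulated data.

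HE and KO pools of a number share a litter, per the labels (correlation of their deviations -0.032), the adult regions a mouse (0.257), and organoids of a number a culture (0.156 to 0.830 in WT, 0.235 to 0.785 in KO). The 6 genes and the lists (8 other Paneth granule genes, 22 defensin genes, Paneth regulator, goblet, myeloid, enterocyte, mesenchymal and stem cell genes) were chosen with earlier results of these data known. The 6 genes were named in every comparison, with at most 2 called genes of a list and the 3 genes of highest r with each member. Muc2, Axin2, the C1q genes and Adgre1 were named after their values were seen where they were not among these. Sequences came from the reference genome and RefSeq, with all 6 members matched. Alternatives were other pseudocounts, filters, scalings, sample sets and blocks, and each replicate left out.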

Additional observations from a re-analysis of the deposited data

Results flagged for a closer look

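Habp2 stood at 136 CPM in the ileum of mouse 77, the highest of the 4 adult DTReGFP libraries, and its gap to the next value was 0.897 of the range of the group, above the 95% limit of Dixon's test for 4 values, which chance passes in about 1 of 20 groups. The difference in dose response between KO and WT organoids with Rspo2 was itself past the threshold for Ang4 (-2.72) and Habp2 (-2.42), both lower in KO.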

How the results depend on the processing

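Over 1758 values of single genes under an alternative, 1635 kept their side of the threshold, 74 lost and 49 gained a call, and 0 called values turned direction. Of the 1635, 79 changed sign, called in neither setting, 67 of them with 1 replicate left out. At E16.5 the members called rose from 0 to 1 with TMM scaling, with 1 fit of all 15 libraries and with edgeR, and to 3 with the litter as a block. For cKO against HE as labelled they rose from 0 to 1 without the filter and with the replicate number as a block, and to 4 under the genotypes of the gene list. With both conflicting libraries left out, a choice made after seeing the data, they were 0. For Cre HE against DTReGFP HE they went from 4 to 2 without the filter, and were 4 with the Cre HE libraries of the gene list, also added after seeing the data. The genotype by dose calls went from 2 to 0 under a pseudocount of 0.1, without the filter, with TMM scaling and with only the groups compared, and to 5 with the culture block. The ligand calls went from 9 to 3 with only the groups compared, which has fewer samples, and to 18 with the culture block. The cause of the other changes was not tested. Shares of all genes called are given for the main fits only, so member calls under an alternative have no such share beside them. These shares use the adjusted p, so counts of members at an unadjusted p have no matching share either. Leaving out 1 replicate gave 0 to 1 calls for ileum against duodenum, 0 to 4 for E18.5 against E16.5, 2 to 4 for Cre HE against DTReGFP HE, 6 to 10 for dose in KO, 1 to 4 for KO against WT, 0 to 2 for genotype by dose and 5 to 13 for ligands. Where an arm kept 1 library, it was assumed to vary like the other groups. E18.5 against E16.5 and cKO against HE share only a number, and the block left the former at 3 calls. The mouse block changed no call, and the culture block otherwise raised the WT dose calls from 15 to 17. A pseudocount of 1 in the Lyz1 to Lyz2 ratio lowered its mean log2 value from 6.44 to 5.83 in WT and from 6.53 to 5.91 in KO organoids. Count tests planned for the other 5 sorted comparisons were not run, since whole reads were worked out only for the E16.5 libraries. Depth limits Lyz2 and Ang4 at E16.5, where some pools hold 2 or 3 reads.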
